A study of Mus musculus with 9 samples.

Results

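Cells carrying wild-type human LMX1A (WT) were compared with cells carrying an empty vector (EV) by RNA sequencing, in 3 WT and 3 EV libraries, which are 6 of the 9 libraries of the series. The cells were HEI-OC1, a mouse line immortalised from the organ of Corti, the hearing epithelium, and labelled as cochlear hair cells. Both groups were transduced cells kept at 37 °C in DMEM with 10% fetal bovine serum, so the EV cells carry the vector without the gene. The remaining 3 libraries carried a frameshift form of LMX1A (c.915dup) and served here for the estimate of the spread and as values set beside the others. The sources used here do not give the promoter of the vector, the number of clones or whether libraries came from separate cultures. The p-values therefore measure only how far these libraries differ, and that spread may be technical.

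LMX1A is a LIM-homeodomain transcription factor, a protein that binds DNA through a homeodomain and partner proteins through LIM domains. It is known for patterning the roof plate, specifying midbrain dopaminergic neurons and setting the borders between sensory and non-sensory epithelium in the developing inner ear. Many of the genes described here are immediate early genes, which growth factors, calcium and cyclic AMP switch on within minutes through the kinases ERK and PKA and the factors SRF and CREB. Their products are partly transcription factors (EGR, NR4A, FOS and JUN families) and partly inhibitors that shut the same kinases off again.

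Human LMX1A, listed apart from the mouse genes, checked the labels: it stood at 133, 132 and 131 FPKM (sequenced fragments per kilobase of a transcript, scaled to 1e6 fragments of the library) in the WT libraries and was listed at 0 in all 3 EV libraries. The cells' own Lmx1a was listed at 0 throughout. The hair cell label had little marker expression behind it. Of 32 hair cell genes, 4 (Eps8, Myo6, Cib2 and Whrn) reached 1 FPKM in all 6 libraries and 13 were listed at 0 in all 6, among them Atoh1, Pou4f3, Otof and Slc26a5. By contrast, 27 of 31 mesenchymal genes reached 1 FPKM in all 6. The libraries numbered 1 stood apart in every group: mitochondrially encoded genes held 4.36% of the FPKM in WT replicate 1 and 5.46% in EV replicate 1, against 1.69% to 2.09% in the other WT and EV libraries. Number 1 against the other numbers was therefore a block in the test. Depth, estimated from the step size of the values, was 13.6 to 15.3 (units of 1e6 fragments) in WT libraries and 13.0 to 14.0 in EV libraries.

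Of 11933 genes tested, 145 passed limma's moderated test at an adjusted p under 0.05 (1.22% of genes tested), 96 higher in WT (0.804%) and 49 lower (0.411%). Apart from human LMX1A these were 144 mouse genes, 95 higher and 49 lower. The differences were small. On the log2(FPKM + 1) scale, 113 of the 144 differed by less than 0.5, 24 were higher by at least 0.5 and 7 were lower by at least 0.5, while 3 reached 1 upwards and 1 downwards. The median called difference was 0.37 among the genes that rose and -0.34 among those that fell, and the median over all genes tested was -0.0047. All 145 genes differed in the same direction between the pair of libraries numbered 1 and between those numbered 2 and 3. The same libraries gave the calls, so a shared direction follows largely from the call itself. In 127 of the 145, no WT library overlapped an EV library, a separation that 12.9% of all genes tested showed. Without the block 42 genes passed (0.352%; 36 higher, 6 lower), and 83 passed (61 higher, 22 lower) when the 3 libraries numbered 1 were left out. With each library left out in turn, 78 to 166 genes passed (78 without EV replicate 1, 87 without WT replicate 2, 91 without EV replicate 3). Of the mouse genes, 61 (49 higher, 12 lower) passed in all 9 of these fits.

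**Figure D1:**
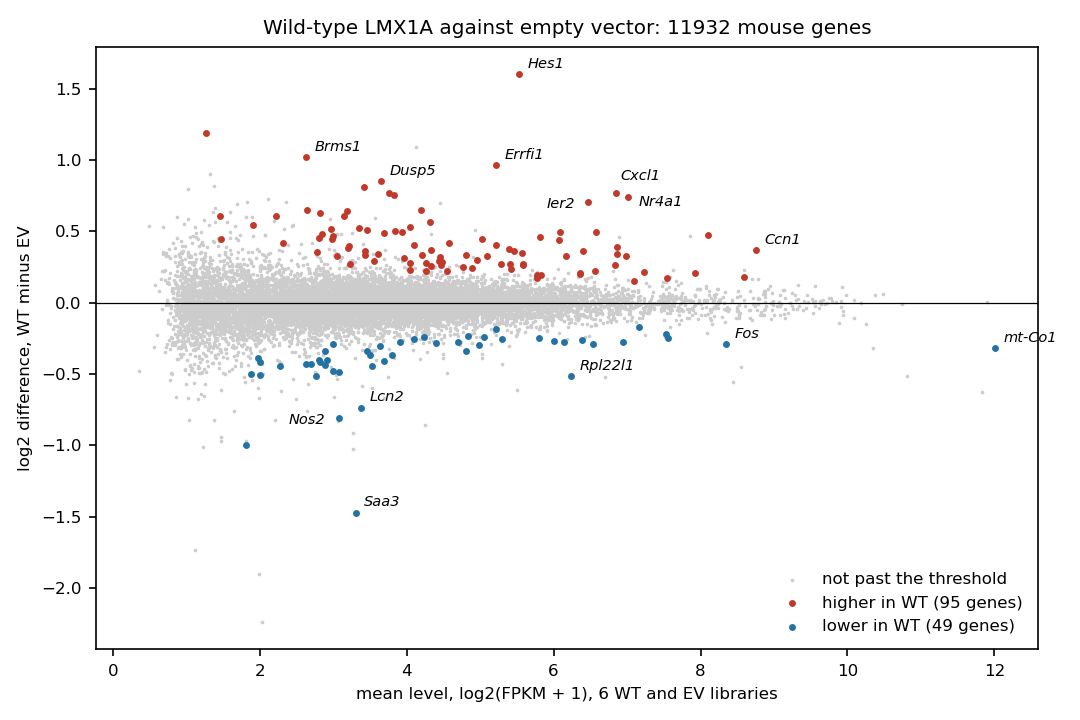
Difference between WT and EV (vertical axis, log2 of FPKM + 1, WT minus EV) against the mean level over the 6 WT and EV libraries (horizontal axis, same scale) for each mouse gene tested. Red points are the 95 genes higher in WT and blue points the 49 lower, and Hes1 and Saa3 stand farthest from 0 among the coloured points.

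**Figure D2:**
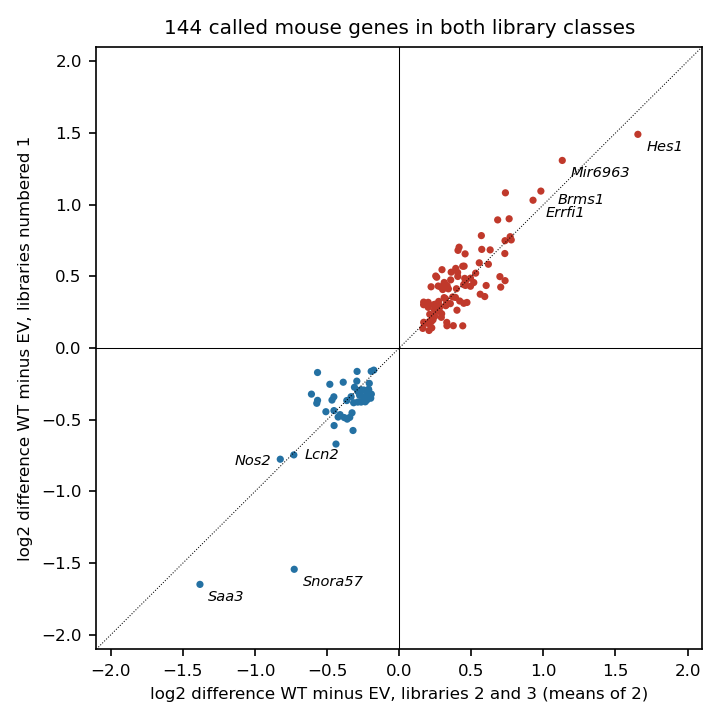
Difference between WT and EV within the libraries numbered 1 (vertical axis, log2) against the difference within those numbered 2 and 3 (horizontal axis, log2) for the 144 called mouse genes, with the dotted line marking equal values. Every point has the same sign on both axes, which the call on these same libraries largely sets. Snora57 lies farther from 0 in the libraries numbered 1.

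Hes1 showed the largest rise of a mouse gene. It encodes a basic helix-loop-helix repressor that is the classic target of Notch signalling and also answers to other pathways, and it keeps progenitors of the inner ear from becoming hair cells. The gene lies at chr16:30064384-30067796 on the plus strand of GRCm38. Hes1 stood at 69.0, 68.3 and 67.9 FPKM in WT libraries and at 23.9, 21.7 and 20.2 FPKM in EV libraries. The WT libraries were close together and far above every EV library, with a log2 difference of 1.60 ± 0.07 (SE; adjusted p = 6.86e-07, limma). Of the 20 Notch pathway genes tested it was the 1 that passed (5.0%, beside 1.22% of all genes tested). The receptor Notch1 (5.20 FPKM in WT, 4.42 in EV; adjusted p = 0.293, limma), the ligand Jag1 (3.30 and 2.95) and the DNA-binding partner Rbpj (27.8 and 31.3; adjusted p = 0.107, limma) did not pass. The median over the list was 0.03, beside -0.0047 over all genes tested.

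Of 23 tested genes of ERK feedback and EGF receptor signalling, 5 were higher (21.7%) and none lower, with a median difference of 0.10. Errfi1, which encodes MIG6, a protein that binds and inhibits the EGF receptor, stood at 52.0, 46.4 and 46.6 FPKM in WT libraries and 24.9, 24.2 and 23.8 FPKM in EV libraries. The groups were far apart, with a log2 difference of 0.96 ± 0.04 (SE; adjusted p = 2.74e-07, limma), and the gene passed in every fit tried. Dusp5, a phosphatase that dephosphorylates ERK in the nucleus, stood at 15.2, 14.8 and 15.3 FPKM in WT libraries against 6.67, 8.32 and 8.96 FPKM in EV libraries (log2 difference 0.85 ± 0.07). The cytoplasmic ERK phosphatase Dusp6 averaged 36.5 ± 2.60 FPKM in WT and 26.5 ± 1.12 FPKM in EV (SD, n = 3 each). Ier3, an early response gene linked to ERK activity, averaged 94.2 ± 8.23 FPKM in WT and 72.8 ± 4.37 FPKM in EV. Dusp4, another nuclear phosphatase, was low at 3.46 ± 0.283 FPKM in WT and 2.06 ± 0.318 FPKM in EV, and its call was lost without WT replicate 3 (adjusted p = 0.0531, limma) and without the libraries numbered 1. In Dusp5 and Errfi1, as in Dusp6, Ier3 and Dusp4, every WT library was above every EV library. The EGF receptor ligands Ereg (5.48 FPKM in WT, 4.12 in EV; adjusted p = 0.0504, limma) and Hbegf (19.2 and 16.3; adjusted p = 0.0554, limma) did not pass. Without the block, 3 of the 5 rises passed.

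A list of immediate early transcription factors, their partners and other early genes such as Arc, Sik1 and Gadd45g held 17 of the called genes. Like the other lists, it was chosen with earlier results of these data known. Of 37 tested, 14 were higher and 3 lower (45.9%), with 29 of the 37 above 0 and a median of 0.16. Without the block 7 higher and 1 lower passed, and without the libraries numbered 1 11 higher and 2 lower passed. Nr4a1, an orphan nuclear receptor gene and a typical CREB target, stood at 168, 159 and 156 FPKM in WT libraries and at 99.3, 97.3 and 91.5 FPKM in EV libraries. Egr2, a zinc-finger factor that SRF and its partners switch on, stood at 12.6, 13.1 and 12.2 FPKM in WT libraries and at 6.29, 7.02 and 7.04 FPKM in EV libraries. Arc, an immediate early gene named for its role at synapses, stood at 16.3, 15.7 and 16.2 FPKM in WT libraries and at 9.07, 8.78 and 9.14 FPKM in EV libraries. In each of these 3 genes the replicates lay close together and the groups far apart, with log2 differences of 0.74 ± 0.03, 0.81 ± 0.06 and 0.77 ± 0.05 (SE).

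Ier2, an early response gene of the same list, stood at 91.3, 118 and 117 FPKM in WT libraries and at 57.5, 74.0 and 66.9 FPKM in EV libraries, lowest in number 1 in both groups. The log2 difference was 0.71 ± 0.04 (SE; adjusted p = 9.89e-06, limma), and without the block the gene did not pass (adjusted p = 0.131, limma). Mafk, a small MAF protein that pairs with other bZIP factors, averaged 16.9 ± 0.798 FPKM in WT and 9.60 ± 0.659 FPKM in EV. The nuclear receptor gene Nr4a2, which is also a marker of midbrain dopaminergic neurons, averaged 6.56 ± 0.492 FPKM in WT and 3.87 ± 0.897 FPKM in EV. Csrnp1, an early response nuclear factor, averaged 10.1 ± 1.19 FPKM in WT and 6.07 ± 0.0770 FPKM in EV, and Sik1, a CREB target that encodes a kinase restraining CREB coactivators, averaged 22.7 ± 1.69 FPKM in WT and 15.0 ± 0.904 FPKM in EV. All 4 genes passed in each fit that left out 1 library, but Nr4a2 did not pass without the block (adjusted p = 0.139, limma). Egr3 rose by 0.52 ± 0.07 (8.21 ± 0.263 FPKM in WT, 5.46 ± 0.571 FPKM in EV), whereas Egr1, the most abundant member of that family, rose by 0.17 ± 0.03 (198 ± 12.4 FPKM in WT, 175 ± 9.97 FPKM in EV). The calls of Egr1, of the growth regulator Myc, of Ier5, of the stress gene Gadd45g and of Srf, which encodes the serum response factor, were each lost in 4 to 7 of the 9 fits that left out 1 library, with adjusted p up to 0.188 (limma).

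Of the 37 tested genes of the immediate early list, 14 were higher and 3 lower, and the 3 were AP-1 genes. Over all genes tested, 0.411% were lower. The AP-1 genes were not counted as a list of their own. Fos, Fosb and Jun encode subunits of the AP-1 dimer and are themselves immediate early genes. Fos stood at 286, 298 and 295 FPKM in WT libraries and at 360.2, 365 and 353 FPKM in EV libraries. Jun stood at 74.2, 88.1 and 84.5 FPKM in WT libraries and at 93.4, 105 and 104 FPKM in EV libraries. In both genes every WT library was below every EV library, with log2 differences of -0.29 ± 0.03 each (SE; adjusted p = 0.000238 for Fos and 0.000978 for Jun, limma). Fosb stood at 181, 168 and 159 FPKM in WT libraries and at 215, 194 and 184 FPKM in EV libraries, lower in WT within each library number (adjusted p = 0.0123, limma). Its call was lost without WT replicate 3, EV replicate 1 or EV replicate 2 (adjusted p up to 0.0889, limma). Neither Jun nor Fosb passed without the block (adjusted p = 0.401 and 0.627, limma), while Fos passed in every fit tried. Fosb also did not pass without the libraries numbered 1 (adjusted p = 0.106, limma). The related genes Fosl1 (8.35 FPKM in WT, 6.67 in EV; adjusted p = 0.0662, limma) and Fosl2 (19.6 and 17.2; adjusted p = 0.110, limma) did not pass. Jun overlaps the antisense gene Junos, and the sources used here do not say that counting used the strand, so reads of the pair may not be told apart.

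**Figure D3:**
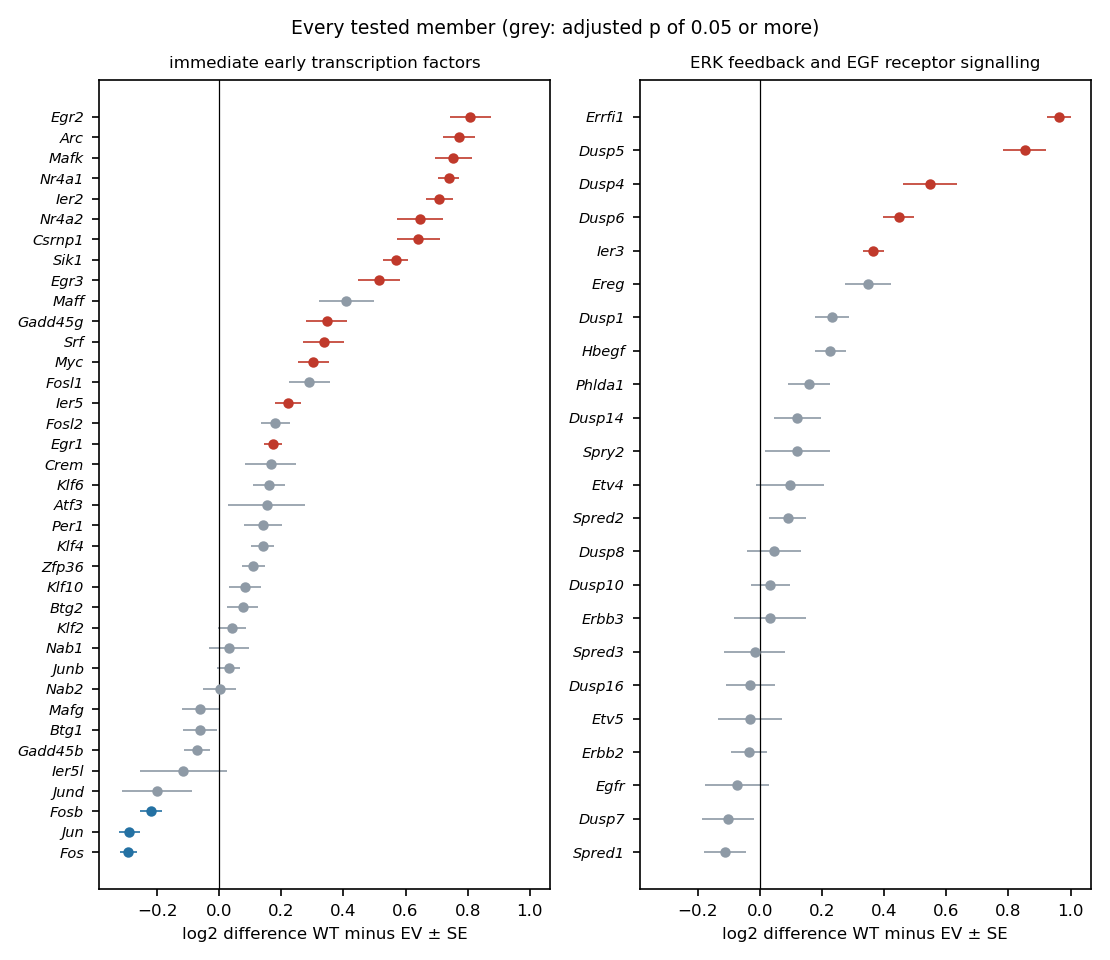
Log2 difference between WT and EV (horizontal axis, WT minus EV, bars ± SE) for every tested member of the immediate early list (37 genes, left) and of the ERK feedback list (23 genes, right). Red and blue points passed the test and grey ones did not, and Fos, Jun and Fosb have values under 0 in the left panel.

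**Figure D4:**
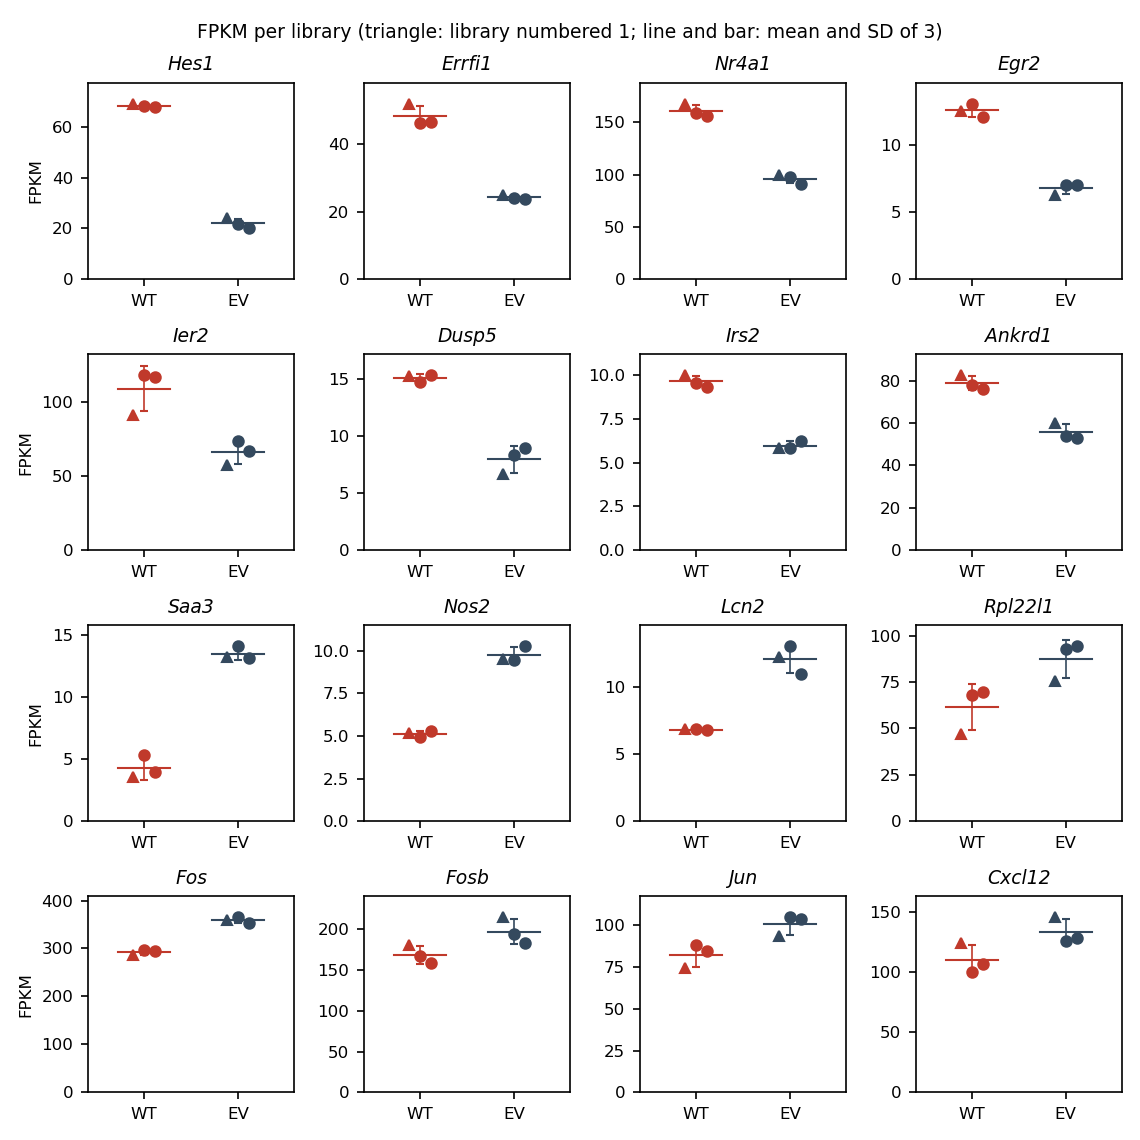
FPKM of 16 genes in each library (vertical axes from 0), WT left of EV, with triangles for the libraries numbered 1 and lines and bars for the mean and SD of 3. The WT and EV points are apart in Hes1, Errfi1, Saa3, Nos2 and Lcn2, and in Ier2 and Rpl22l1 the triangle lies below the circles in both groups.

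Promoters of some of these genes show the letters by which CREB and SRF are known to bind. The stretches are the 250 bases before the start, from RefSeq on GRCm38.p6, chosen as examples of rises with a motif (Errfi1, Nr4a1, Egr2, Dusp5), of a fall with a motif (Fos) and of a fall without one (Saa3). Capitals mark the full cyclic AMP element TGACGTCA in Errfi1, its inner letters TGACG or CGTCA in Nr4a1 and Fos, and the CArG box of SRF in Egr2 and Dusp5, and Saa3 has no capitals.
Errfi1 (chr4:150854820-150855069, plus strand): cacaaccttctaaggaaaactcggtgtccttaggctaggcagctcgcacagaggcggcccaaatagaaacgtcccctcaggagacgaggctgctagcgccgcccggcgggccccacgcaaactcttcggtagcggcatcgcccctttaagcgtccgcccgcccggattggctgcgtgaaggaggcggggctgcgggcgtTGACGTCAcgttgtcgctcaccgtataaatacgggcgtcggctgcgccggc
Nr4a1 (chr15:101266596-101266845, plus strand): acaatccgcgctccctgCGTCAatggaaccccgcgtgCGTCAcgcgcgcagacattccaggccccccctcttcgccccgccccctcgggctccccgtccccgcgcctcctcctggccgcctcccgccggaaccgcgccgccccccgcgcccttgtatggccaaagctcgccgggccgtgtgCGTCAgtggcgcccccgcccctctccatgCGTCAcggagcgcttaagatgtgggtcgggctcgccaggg
Egr2 (chr10:67537680-67537929, plus strand): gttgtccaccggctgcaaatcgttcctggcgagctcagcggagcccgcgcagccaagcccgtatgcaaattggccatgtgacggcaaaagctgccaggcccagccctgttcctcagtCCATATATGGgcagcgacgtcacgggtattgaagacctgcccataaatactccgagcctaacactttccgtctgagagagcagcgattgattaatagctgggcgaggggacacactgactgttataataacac
Dusp5 (chr19:53528895-53529144, plus strand): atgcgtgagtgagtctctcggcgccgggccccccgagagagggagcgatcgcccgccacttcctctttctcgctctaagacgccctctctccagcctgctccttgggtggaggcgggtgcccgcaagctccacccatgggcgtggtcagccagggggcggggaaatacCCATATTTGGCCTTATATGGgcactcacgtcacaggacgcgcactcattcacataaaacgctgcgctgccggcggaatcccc
Fos (chr12:85473640-85473889, plus strand): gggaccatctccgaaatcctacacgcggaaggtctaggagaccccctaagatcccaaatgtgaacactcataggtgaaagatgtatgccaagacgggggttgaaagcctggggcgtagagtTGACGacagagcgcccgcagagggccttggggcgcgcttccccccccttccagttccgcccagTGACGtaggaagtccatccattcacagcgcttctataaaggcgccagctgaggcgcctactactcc
Saa3 (chr7:46715677-46715926, minus strand): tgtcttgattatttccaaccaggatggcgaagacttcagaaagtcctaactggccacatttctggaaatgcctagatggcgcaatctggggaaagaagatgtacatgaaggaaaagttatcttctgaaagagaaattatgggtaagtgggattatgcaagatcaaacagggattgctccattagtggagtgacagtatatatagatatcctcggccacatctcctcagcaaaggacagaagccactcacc
Errfi1 holds the full element 51 bases before the start in this 1 of its 2 windows, and Nr4a1 holds 4 shorter matches, 233, 213, 69 and 40 bases before. Dusp5 carries a pair of CArG boxes next to each other, 82 and 72 bases before its start, and the stretch of Egr2, 1 of its 5 windows, carries 1 at 133. The stretches of Dusp5 and Egr2 also hold TGACG or CGTCA, left in small letters.

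Over the genes higher in WT, 66 of 95 mouse genes had a promoter in the reference table, in 92 windows. Both strands were searched, and TGACG also counts inside TGACGTCA. The CArG box was in 9 of the 92 windows (9.78%), those of 6 genes (Egr2, Dusp5, Myl9, Pou3f4, Srf and Lima1), against 1.47% of all 32851 windows and 1.15% of the 11302 windows of genes tested. TGACGTCA was in 5 of the 92 (5.43%), against 1.55% of all windows and 2.64% of those of genes tested. TGACG, a motif added after values were seen, was in 30 (32.6%), against 17.8% and 27.6%. TAATTA, a sequence typical of homeodomain binding, was in 2 of the 92 (2.17%), against 4.84% and 2.30%. Among the 44 windows of 38 genes lower in WT, TGACG was in 17 (38.6%) and TGACGTCA in 1 (2.27%). Neither the CArG box nor TAATTA was found in these windows. Their shares over windows of genes tested were 1.15% and 2.30%, so absence from 44 windows says little. Only the 250 bases before each start were searched, so sites farther away were not seen. These shares are descriptions without a test, and genes with several windows count more than once. Hes1 has no entry in the table.

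Of 29 tested targets of SRF and of YAP, the coactivator that answers to stretch and to cell spreading, and contractile genes, 9 were higher (31.0%), none lower and 20 did not pass, with a median of 0.10. Without the block, and likewise without the libraries numbered 1, 6 of the 9 passed. Ankrd1, a YAP target of muscle and stressed cells, stood at 82.6, 78.2 and 75.9 FPKM in WT libraries and at 59.9, 54.1 and 52.99 FPKM in EV libraries. Ccn1, which encodes the matricellular protein CYR61, stood at 482, 491 and 485 FPKM in WT libraries and at 377, 382 and 372 FPKM in EV libraries. Ccn2, which encodes connective tissue growth factor, stood at 20.4, 22.5 and 21.4 FPKM in WT libraries and at 12.3, 13.9 and 13.7 FPKM in EV libraries. The groups did not overlap in any of these, and each passed in every fit (log2 differences 0.50 ± 0.03, 0.37 ± 0.02 and 0.65 ± 0.04, SE). Thbs1 (thrombospondin 1; 140.4 ± 1.65 FPKM in WT, 112 ± 2.58 FPKM in EV) rose as well. Of the contractile genes, Acta2, smooth muscle actin, averaged 78.7 ± 2.43 FPKM in WT and 62.7 ± 2.90 FPKM in EV, and the myosin light chain gene Myl9 11.1 ± 0.940 FPKM in WT and 7.38 ± 0.510 FPKM in EV. Tagln, which encodes transgelin, was low at 2.31 ± 0.281 FPKM in WT and 1.17 ± 0.133 FPKM in EV. Its call was lost without WT replicate 2 or EV replicate 1, that of Zyx (zyxin) in 4 such fits (adjusted p up to 0.0715 and 0.115, limma), and Tagln overlaps Pcsk7.

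Genes of acute inflammation moved in both directions. Of 18 acute-phase and innate defence genes tested, 6 were lower and 1 higher (38.9%), with a median of -0.07. Saa3 encodes serum amyloid A3 and lies at chr7:46711998-46715700 on the minus strand of GRCm38. It stood at 3.53, 5.35 and 3.96 FPKM in WT libraries and at 13.2, 14.1 and 13.2 FPKM in EV libraries. No WT library came near the EV libraries, and the log2 difference of -1.47 ± 0.10 (SE; adjusted p = 2.08e-05, limma) was the largest fall of a called gene. Nos2, the inducible nitric oxide synthase, stood at 5.16, 4.95 and 5.30 FPKM in WT libraries and at 9.54, 9.45 and 10.3 FPKM in EV libraries. Lcn2, the iron-sequestering lipocalin, stood at 6.88, 6.82 and 6.75 FPKM in WT libraries and at 12.2, 13.0 and 10.9 FPKM in EV libraries. Both were tight in WT and below every EV library (log2 differences -0.81 ± 0.07 and -0.74 ± 0.07, SE). The complement gene C3 averaged 5.998 ± 0.140 FPKM in WT and 8.81 ± 0.202 FPKM in EV. Steap4, a metalloreductase induced by cytokines, and Lbp, which encodes the lipopolysaccharide-binding protein, fell by 0.36 and 0.34 on the log2 scale, with calls lost in 5 of the 9 fits that left out 1 library (adjusted p up to 0.0607 and 0.130, limma). Ptx3, a pentraxin of tissue inflammation, was the member that rose (123 ± 6.55 FPKM in WT, 102 ± 3.01 FPKM in EV), and it did not pass without the block (adjusted p = 0.140, limma), where 4 members were lower and 0 higher. Without the libraries numbered 1, 4 members were lower and 2 higher. Il6 averaged 5.26 FPKM in WT and 2.94 FPKM in EV and did not pass (adjusted p = 0.217, limma). In bulk samples, fewer cells of a kind and less RNA per cell cannot be told apart.

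Among 24 genes of NF-kB and the chemokines, 3 were higher and 1 lower (16.7%). Cxcl1, a chemokine that attracts neutrophils, stood at 161, 132 and 140.1 FPKM in WT libraries and at 95.1, 80.3 and 77.7 FPKM in EV libraries. Nfkbiz, a nuclear IkB protein that acts with NF-kB at selected genes including that of Lcn2, stood at 318, 322 and 317 FPKM in WT libraries and at 236, 231 and 222 FPKM in EV libraries. Nfkbia, the classic inhibitor that NF-kB induces against itself, stood at 77.3, 74.1 and 77.6 FPKM in WT libraries and at 54.4, 58.7 and 55.3 FPKM in EV libraries. All 3 had WT libraries above every EV library and passed in every fit, with log2 differences of 0.77 ± 0.04, 0.47 ± 0.03 and 0.44 ± 0.04 (SE). Cxcl12, a chemokine that stromal cells make constitutively, fell (110.5 ± 12.1 FPKM in WT, 134 ± 10.7 FPKM in EV; log2 difference -0.27 ± 0.03) and did not pass without the block. Cxcl5 (18.7 FPKM in WT, 24.3 in EV; adjusted p = 0.0509, limma), Ccl7 (65.0 and 77.8; adjusted p = 0.0531, limma) and the NF-kB inhibitor Tnfaip3 (6.62 and 5.09; adjusted p = 0.0664, limma) did not pass. Of 17 genes of the IL-6 family and its pathway 3 were higher (17.6%): the cytokine gene Lif (7.37 ± 0.660 FPKM in WT, 4.97 ± 0.253 FPKM in EV), the kinase gene Pim1 (26.4 ± 1.69 FPKM in WT, 19.5 ± 1.26 FPKM in EV) and its relative Pim3, whose call was lost in 5 of the 9 fits that left out 1 library. Without the libraries numbered 1, neither Lif nor Pim3 passed (adjusted p = 0.0864 and 0.0670, limma). Ptgs2, which encodes the inducible cyclooxygenase, averaged 41.4 ± 2.88 FPKM in WT and 31.2 ± 3.90 FPKM in EV (log2 difference 0.40 ± 0.05). It was named here after its values were seen and did not pass without the block (adjusted p = 0.489, limma).

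Interferon response genes had 3 of 35 members higher (8.57%) and a median of 0.08. Isg15, the ubiquitin-like modifier, averaged 131 ± 3.02 FPKM in WT and 100.1 ± 4.50 FPKM in EV and passed in every fit. The antiviral gene Rsad2 (7.07 ± 0.397 FPKM in WT, 4.91 ± 0.476 FPKM in EV) and the chemokine gene Cxcl10 (22.8 ± 1.13 FPKM in WT, 18.5 ± 0.968 FPKM in EV) did not pass without the block or without the libraries numbered 1, so that 1 of the 3 remained in each case. Ifit1 (33.5 FPKM in WT, 29.3 in EV; adjusted p = 0.0536, limma) did not pass. Of 33 genes of the unfolded protein and integrated stress responses 3 were higher (9.09%): the factor gene Atf5 (48.4 ± 3.59 FPKM in WT, 37.7 ± 4.96 FPKM in EV), Asns, asparagine synthetase (87.0 ± 0.779 FPKM in WT, 75.0 ± 1.38 FPKM in EV), and Trib3, a pseudokinase gene (11.1 ± 0.560 FPKM in WT, 8.44 ± 0.603 FPKM in EV). None of these 3 passed without the block, Asns lost its call without WT replicate 2 or EV replicate 3, and Trib3 lost it in 4 such fits. Atf5 overlaps Nup62 on the opposite strand.

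Matrix genes outside the collagens had 5 of 41 members higher (12.2%), none lower. Besides Thbs1 these were Plau, the urokinase gene (46.6 ± 1.29 FPKM in WT, 35.7 ± 1.41 FPKM in EV), the protease gene Adamts1 (51.6 ± 1.89 FPKM in WT, 42.6 ± 2.08 FPKM in EV), the fibulin gene Efemp1 and the fibrillin gene Fbn1. Plau passed in every fit, and Adamts1 did not pass without the block (adjusted p = 0.262, limma). The calls of Efemp1 and Fbn1 were lost in 5 and 6 of the 9 fits that left out 1 library (adjusted p up to 0.158, limma). Of 26 collagens and their enzymes, Col3a1 (410.1 ± 26.9 FPKM in WT, 362 ± 15.6 FPKM in EV) and Col6a3 (12.6 ± 0.891 FPKM in WT, 9.78 ± 0.672 FPKM in EV) rose (7.69%), each with a call lost in 7 of those 9 fits. Omd, which encodes the small proteoglycan osteomodulin, averaged 4.57 ± 0.903 FPKM in WT and 2.72 ± 1.10 FPKM in EV. It stood at 5.61, 4.15 and 3.95 FPKM in WT libraries and at 3.92, 1.75 and 2.50 FPKM in EV libraries. It was highest in number 1 in both groups, and the lowest WT library was barely above the highest EV library. Its call was lost without WT replicate 2 or WT replicate 3 (adjusted p up to 0.0690, limma), and it overlaps Cenpp.

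Neuronal growth genes had 3 of 30 members higher (10.0%): Stmn2, a microtubule-destabilising protein of growing axons, stood at 7.49, 6.98 and 8.20 FPKM in WT libraries and at 5.01, 4.07 and 4.51 FPKM in EV libraries, without overlap and with a call in each fit that left out 1 library. Dpysl3, a collapsin response mediator (28.6 ± 0.405 FPKM in WT, 23.8 ± 0.649 FPKM in EV), and the ephrin receptor gene Epha2 (16.9 ± 0.632 FPKM in WT, 14.2 ± 0.365 FPKM in EV) lost their calls in 3 and 8 such fits (adjusted p up to 0.0811 and 0.202, limma). Of 4 midbrain dopaminergic genes tested, Nr4a2 was the 1 that passed (25.0%, beside 1.22% of all genes tested). It is also on the immediate early list, and it did not pass without the block. Among 19 deafness genes outside the hair cell, Pou3f4 passed (5.26%, beside 1.22% of all genes tested). It encodes a POU factor of the mesenchyme around the otic capsule (20.0 ± 3.96 FPKM in WT, 16.5 ± 4.43 FPKM in EV, log2 difference 0.28 ± 0.05). The groups overlapped, and the call was lost in 5 of the fits that left out 1 library (adjusted p up to 0.106, limma). Pou3f4 passed neither without the block (adjusted p = 0.954, limma) nor without the libraries numbered 1 (adjusted p = 0.0537, limma). None of the 4 hair cell, 15 otic progenitor and supporting cell or 8 LIM-homeodomain and cofactor genes tested passed limma's test, and 1, 1 and 0 of them had an unadjusted p under 0.05 (13.3% of all genes tested did). Among these were Sox9 (12.9 FPKM in WT, 14.1 in EV) and the LIM-domain cofactor gene Ldb1 (32.1 and 34.6). The summed FPKM of the hair cell genes was 22.7 to 23.2 in WT and 23.9 to 24.0 in EV. Of 2 melanocyte markers tested, 1 passed (50.0%, beside 1.22% of all genes tested). This was Gpnmb, a glycoprotein of melanocytes and other cells, which rose (51.1 ± 0.979 FPKM in WT, 42.4 ± 1.94 FPKM in EV). Its call was lost in 3 of the fits that left out 1 library. The summed FPKM of the melanocyte markers was 52.9 to 54.7 in WT and 43.7 to 47.1 in EV, most of it Gpnmb. That of the Schwann cell markers was 79.0 to 79.8 in WT and 73.0 to 76.9 in EV. Egr2, which is also on the immediate early list, was the 1 of 4 tested that passed (25.0%, beside 1.22% of all genes tested). Of the 10 melanocyte markers, 3 (Dct, Kit and Slc45a2) were listed at 0 in all 6 libraries and 2 (Gpnmb and Mitf) reached 1 FPKM in all 6. Of the 10 Schwann cell and glia markers, 2 (Sox10 and Foxd3) were listed at 0 in all 6 and 2 (Pmp22 and Egr2) reached 1 FPKM in all 6. Pmp22 made up most of the Schwann cell sum but was not higher in WT (62.8 to 64.6 FPKM in WT, 63.9 to 67.1 FPKM in EV). Egr2 averaged 12.6 FPKM in WT and 6.78 FPKM in EV. Immune markers summed to 3.43 to 5.16 FPKM in WT and 4.25 to 5.12 FPKM in EV, endothelial markers to 1.77 to 2.14 FPKM in WT and 1.66 to 2.05 FPKM in EV, and epithelial markers to 0.971 to 1.49 FPKM in WT and 0.697 to 1.73 FPKM in EV, so these ranges overlapped.

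Irs2, a named rise on no list, encodes the adaptor that couples the insulin receptor to its kinases and is a known CREB target. It stood at 10.0, 9.59 and 9.36 FPKM in WT libraries and at 5.84, 5.83 and 6.26 FPKM in EV libraries. The groups were well apart (log2 difference 0.61 ± 0.05; adjusted p = 0.000145, limma), and the gene passed in every fit. Sgk1, a kinase induced by serum and glucocorticoids (129 ± 1.53 FPKM in WT, 101 ± 1.35 FPKM in EV), and Trib1, a pseudokinase gene (14.0 ± 0.834 FPKM in WT, 9.69 ± 0.523 FPKM in EV), rose. So did Tiparp, a mono-ADP-ribosyltransferase induced by the aryl hydrocarbon receptor (18.5 ± 1.67 FPKM in WT, 13.8 ± 1.11 FPKM in EV), and Slc25a25, a calcium-regulated mitochondrial carrier (9.50 ± 0.232 FPKM in WT, 6.98 ± 0.294 FPKM in EV). These 4 were named after their values were seen. Tiparp did not pass without the block (adjusted p = 0.191, limma), nor did Slc25a25 without the libraries numbered 1 (adjusted p = 0.0628, limma).

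Of 22 p53 response genes, the polo-like kinase gene Plk2 (110.5 ± 3.56 FPKM in WT, 78.2 ± 2.84 FPKM in EV) and its relative Plk3 rose and the cyclin gene Ccng1 fell (57.1 ± 2.24 FPKM in WT, 69.2 ± 6.50 FPKM in EV), which is 13.6% of the list. Plk2 passed in every fit, and Plk3 and Ccng1 lost their calls in 5 and 3 fits that left out 1 library. Plk2 and Plk3 are also immediate early genes. Bhlhe40, a clock-linked repressor, averaged 64.2 ± 2.72 FPKM in WT and 46.4 ± 1.66 FPKM in EV. The bZIP repressor gene Nfil3 averaged 8.26 ± 0.527 FPKM in WT and 5.70 ± 0.0560 FPKM in EV. They were the 2 of 18 clock genes that passed (11.1%), and Nfil3 did not pass without the libraries numbered 1 (adjusted p = 0.0713, limma).

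Among mouse genes Brms1 had the largest called rise after Hes1 and the short RNA gene Mir6963. It encodes a subunit of a histone deacetylase complex, and it stood at 4.62, 7.88 and 9.31 FPKM in WT libraries and at 1.63, 4.34 and 3.39 FPKM in EV libraries. Each WT library was above every EV library, but the values in number 1 were lowest in both groups, and the log2 difference of 1.02 ± 0.12 (SE; adjusted p = 0.00146, limma) did not pass without the block. Brms1 shares part of its span with AC124502.3 on the same strand, so the counting could split reads between them. Mir6963, a microRNA gene inside Itga5 named after its values were seen, stood at 3.14, 1.67 and 2.30 FPKM in WT libraries and at 0.670, 0.263 and 0.451 FPKM in EV libraries (log2 difference 1.19 ± 0.15). FPKM of so short a gene is a poor measure of the mature microRNA, and its host's reads cannot be told apart from its own.

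Among the remaining falls, Rpl22l1, a paralog of a ribosomal protein gene, stood at 47.1, 67.8 and 69.6 FPKM in WT libraries and at 75.6, 92.7 and 94.2 FPKM in EV libraries. The groups did not overlap and number 1 was lowest in both, with a log2 difference of -0.52 ± 0.06 (SE; adjusted p = 0.00195, limma) that did not pass without the block. Paxx, a factor of DNA end joining, averaged 4.59 ± 0.497 FPKM in WT and 6.97 ± 0.474 FPKM in EV, and Polg2, the accessory subunit of the mitochondrial DNA polymerase, 2.31 ± 0.440 FPKM in WT and 3.69 ± 0.333 FPKM in EV. Zfp958, a zinc-finger gene, averaged 2.06 ± 0.528 FPKM in WT and 3.30 ± 0.397 FPKM in EV. All 3 calls were lost in 3 to 8 of the fits that left out 1 library (adjusted p up to 0.0622, 0.162 and 0.0903 for Paxx, Polg2 and Zfp958, limma). A4galt, Purg, Tmem203, Rasl11a, Adprm and Ccbe1 fell by 0.39 to 0.43 on the log2 scale, each from a mean under 8 FPKM in EV, and each call was lost in 5 to 9 of those fits. Snora57, a small nucleolar RNA gene that overlaps Lbhd1 on the opposite strand and was named after its values were seen, stood at 0.659, 1.42 and 2.09 FPKM in WT libraries and at 3.83, 3.74 and 3.33 FPKM in EV libraries, and its call was lost in 6 of those fits.

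Long noncoding RNAs of the nucleus and hosts of small nucleolar RNAs lay mostly below 0. Of 21 tested, 3 were lower and none higher (14.3%), 19 lay below 0 and the median was -0.21, beside -0.0047 over all genes. Snhg12, a host of small nucleolar RNAs, stood at 8.79, 8.39 and 9.23 FPKM in WT libraries and at 12.7, 11.4 and 12.9 FPKM in EV libraries. Gas5, a further such host, averaged 74.8 ± 4.82 FPKM in WT and 89.9 ± 5.56 FPKM in EV, and Xist, the RNA that coats the inactive X chromosome, 8.88 ± 1.20 FPKM in WT and 11.8 ± 2.24 FPKM in EV. None of the 3 passed without the block or without the libraries numbered 1, and Xist lost its call without EV replicate 1 and Gas5 and Snhg12 in 4 fits that left out 1 library (adjusted p up to 0.0761, limma). Pvt1 and Mir99ahg, long noncoding RNAs on no list, fell by 0.48 and 0.45 on the log2 scale, with calls lost in 5 and 6 such fits. Of 34 genes of splicing, Rsrp1 (49.8 ± 2.94 FPKM in WT, 59.3 ± 3.57 FPKM in EV) and the kinase gene Clk1 (23.7 ± 1.44 FPKM in WT, 30.2 ± 0.931 FPKM in EV) fell (5.88%) and 24 lay below 0, with a list median of -0.06. Both calls were lost in 6 or 7 such fits and without the block.

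Of 13 mitochondrially encoded genes 1 passed (7.69%, beside 1.22% of all genes tested). The cytochrome oxidase gene mt-Co1 stood at 5495, 2656 and 2827 FPKM in WT libraries and at 7136, 3203 and 3492 FPKM in EV libraries. The groups overlapped over all libraries and separated only within library number, with a log2 difference of -0.32 ± 0.04 (SE; adjusted p = 0.00169, limma) that passed neither without the block nor without the libraries numbered 1. The other 12, among them mt-Cytb (1127 FPKM in WT, 1305 in EV; adjusted p = 0.483, limma), did not pass. Of 39 nuclear genes of oxidative phosphorylation 1 passed (2.56%, beside 1.22% of all genes tested). This was Ndufs3, which fell (33.7 ± 2.30 FPKM in WT, 38.4 ± 3.08 FPKM in EV), with a call lost in 8 of the 9 fits that left out 1 library.

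Several long lists had no gene past the test: 0 of 41 cell cycle and DNA replication genes, 0 of the 43 cytosolic ribosomal proteins listed, 0 of 36 genes of sterol and fatty acid synthesis, 0 of 32 of glycolysis and hypoxia, 0 of 28 antioxidant genes and 0 of 24 heat shock genes (limma). The ribosomal list left out Rps13, which fell (171 ± 3.82 FPKM in WT, 204 ± 7.08 FPKM in EV; named after its values were seen). At an unadjusted p under 0.05 these lists held 9 (22.0%), 9 (20.9%), 5 (13.9%), 6 (18.8%), 3 (10.7%) and 4 genes (16.7%) in that order, where all genes tested held 1591 (13.3%). Under some other settings 1 ribosomal protein gene and 1 or 2 heat shock genes passed. The medians of these 6 lists lay between -0.03 and 0.05. Aldoa of glycolysis stood at 569 FPKM in WT and 598 FPKM in EV (adjusted p = 0.275, limma), and Cdk1 of the cell cycle at 32.0 FPKM in WT and 28.1 FPKM in EV (adjusted p = 0.209, limma). Of 22 BMP and TGF-beta genes, the repressor gene Id1 rose (45.5 ± 4.24 FPKM in WT, 37.5 ± 3.83 FPKM in EV). The ligand gene Bmp4 fell (12.6 ± 1.20 FPKM in WT, 15.4 ± 1.05 FPKM in EV), so that 9.09% of this list passed. The calls of Id1 and Bmp4 were lost in 6 and 7 of the fits that left out 1 library. Of 23 Wnt pathway genes, Myc was the 1 that passed (4.35%, beside 1.22% of all genes tested).

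**Figure D5:**
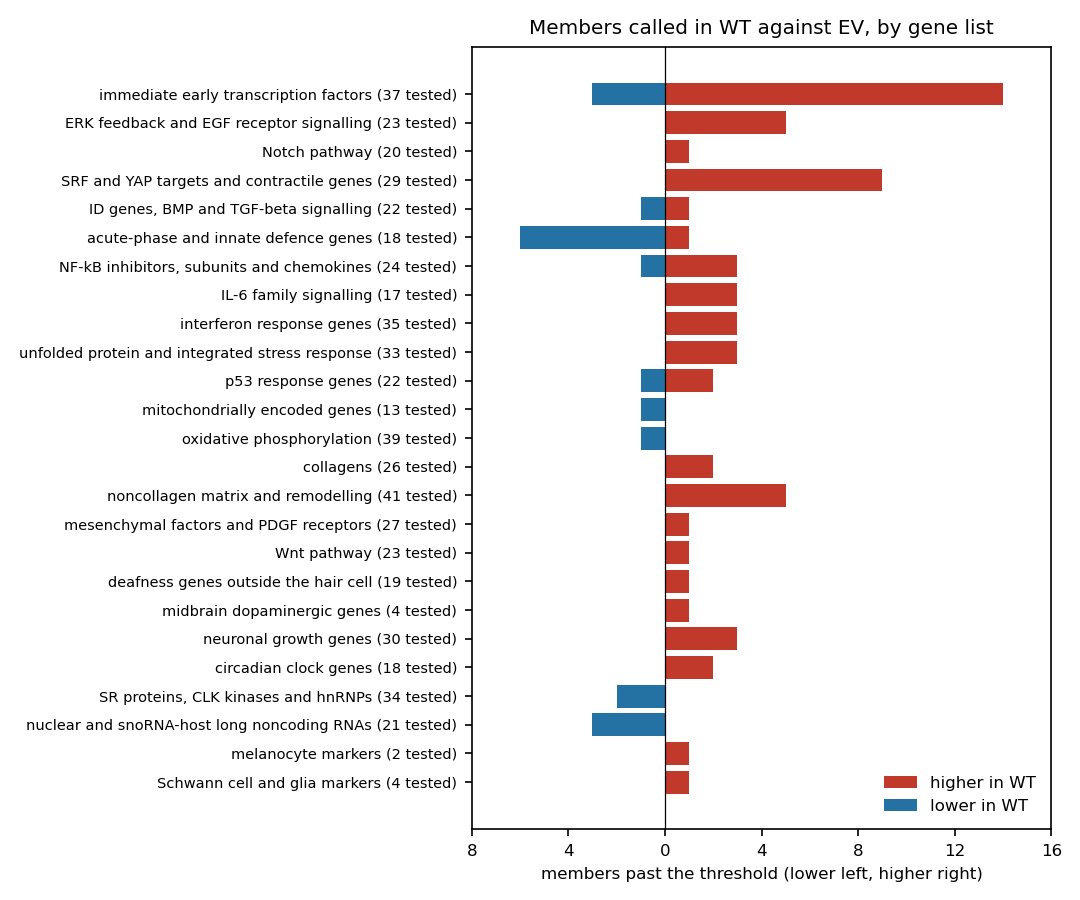
Number of tested members past the threshold in each gene list with at least 1 such member (horizontal axis, lower in WT to the left in blue, higher in WT to the right in red). The immediate early list has 14 higher and 3 lower, the SRF and YAP list 9 higher, and the acute-phase list 6 lower and 1 higher.

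The genomic span of a gene, introns included, differed between called and other genes, a contrast that was not tested. The protein-coding genes that rose spanned a median of 10.9 kb and those that fell 9.58 kb, against 24.4 kb over the 10812 protein-coding genes tested, and 46.2% and 50.0% of them were shorter than 10 kb, against 23.4%. Calls were also more frequent at higher levels, but level enters both the filter and the trend of the fit. With the genes tested cut into 4 equal bins of mean level, 2.11% passed in the highest bin and 0.402% in the lowest, and the median standard error was 0.05 in the highest and 0.11 in the lowest. Of the 144 mouse genes 133 were protein coding (92.4%), and 21 overlapped another gene at 1 FPKM or more.

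The c.915dup libraries gave the same genes' levels in cells with the frameshift form, without a comparison here since both forms share the EV libraries. Hes1 stood at 79.1, 90.9 and 77.4 FPKM in c.915dup libraries, against 69.0, 68.3 and 67.9 FPKM in WT libraries and 23.9, 21.7 and 20.2 FPKM in EV libraries. Nr4a1 stood at 235, 231 and 232 FPKM in c.915dup libraries, above the WT libraries, whose highest was 168 FPKM, and the EV libraries, whose highest was 99.3 FPKM. Saa3 stood at 4.33, 5.78 and 4.85 FPKM in c.915dup libraries, within and just above the range of the WT libraries (3.53 to 5.35 FPKM) and below that of the EV libraries (13.2 to 14.1 FPKM). The AP-1 genes differed in placement. Fosb stood at 310.1, 273 and 288 FPKM in c.915dup libraries, above the EV libraries (184 to 215 FPKM), which were above WT libraries of the same number. Fos stood at 344, 345 and 345 FPKM in c.915dup libraries, between the WT libraries (286 to 298 FPKM) and the EV libraries (353 to 365 FPKM). Isg15 also lay between, at 120.0, 119.6 and 113 FPKM in c.915dup libraries. Col3a1 stood at 337, 342 and 335 FPKM in c.915dup libraries, below the WT libraries (379 to 429 FPKM) and the EV libraries (348 to 379 FPKM).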

How the data were processed

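The authors deposited 1 value per gene and library for 55451 genes. No file header names the unit, and the deposited values were read as FPKM because their totals differ between libraries and value times transcript length moves in equal steps. Per the submitters' processing notes, the tools were HISAT2, RSEM, edgeR, Trimmomatic, FastQC and CASAVA 1.8 and the build GRCm38. Their roles are not stated, and the design text instead names TopHat, Cufflinks and BWA. The sources used here do not give the strand setting of the counting. Another deposited table held the same values for fewer genes and was not used. WT and EV columns carry their titles' numbers. Those of c.915dup bear the numbers 1, 3 and 4 where the titles run from 1 to 3, so each was assigned to the group without a sample and is called by its own number.

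Genes with FPKM of 1 or more in 3 or more of the 9 libraries were tested on log2(FPKM + 1), a scale that understates the change of low genes. One fit over all 9 libraries (lmFit and eBayes of limma 3.58.1, with the trend and robust options, in R 4.3.3) gave the difference WT minus EV, with number 1 against the other numbers as a block. Tests were two-sided, and p-values were adjusted by Benjamini-Hochberg over the 11933 genes. The numbers were taken to pair libraries because the deviations of same-numbered WT and EV libraries from their group means correlated at 0.62, 0.39 and 0.26 for numbers 1, 2 and 3. Number 1 correlated negatively with the others (-0.38 to -0.49). Numbers 2 and 3 correlated with each other about as with themselves (0.27 and 0.30), so the block separated number 1 only. The deviations of 3 libraries from their own mean sum to 0, so these correlations depend on one another and are not separate evidence. The libraries numbered 1 also stood apart on the first principal component, which held 42.5% of the variance.

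Named genes were the 20 largest rises and falls among called genes with 1 FPKM or more in the higher group, the same sign within library classes, no overlap in numbers 2 and 3, no predicted or clone name and no short RNA, plus the called members and up to 3 further members of 39 gene lists. The members and lists were chosen with earlier results of these data known, and a list is described by counts and its median, without a set test. Other called genes described are marked as named after their values were seen, and a few more appear as label checks, overlapping genes or promoters with a motif. Promoter letters came from RefSeq windows on GRCm38.p6. The fitting procedure was tested on simulated data. Depth per library is an approximation that entered no test. Alternatives covered the block, the samples fitted, the pseudocount, the filter, the scaling, eBayes and each library left out. Tables were read with pandas 2.3.3 and numpy 2.4.6 under Python 3.11.15, and figures drawn with matplotlib 3.10.9.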

Additional observations from a re-analysis of the deposited data

How the results depend on the processing

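Against 145 genes called, 96 higher and 49 lower, the fit with no replicate block gave 42 (36 higher, 6 lower), of which 41 were among the 145, and 104 of the calls were lost; the pairing by numbers 1, 2 and 3 as blocks on the 6 WT and EV libraries gave 89 (59 and 30), and leaving out the libraries numbered 1 gave 83 (61 and 22). A filter of FPKM above 0 in at least 1 library, which tested 28732 genes, gave 44 (34 and 10), and eBayes without trend and robust gave 91, with 26 lower. Without mitochondrial, human LMX1A and short RNA genes, 80 were lower. Leaving out 1 library at a time gave 78 to 166 called, 57 to 108 higher and 21 to 58 lower. The remaining settings stayed within 1.5 times each count, and none of the 145 genes changed sign in any fit, although quantile normalization set the difference of mt-Co1 to 0, since it ranked first in every library numbered 1 and in place 3 in every other. Among the values of single named genes, 3608 of those recomputed stayed on their side of the threshold, 476 lost a call and 103 gained one. A total of 83 mouse genes lost their call in at least 1 fit that left out a library. The estimated 13.0 to 16.0 (units of 1e6 fragments) per library limits genes of low level, where the median standard error was 0.11 in the lowest of 4 bins of mean level.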

Other observations

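The called genes on no list numbered 67, 37 higher and 30 lower, and those not yet described were read after their values were seen. Ank2, which encodes an ankyrin adaptor of membrane proteins, averaged 11.9 ± 1.14 FPKM in WT and 8.11 ± 1.68 FPKM in EV (SD, n = 3 each). Itprip, an inositol trisphosphate receptor-interacting protein gene, averaged 16.9 ± 1.804 FPKM in WT and 11.6 ± 0.521 FPKM in EV. Aqp1, a water channel gene, averaged 36.9 ± 3.75 FPKM in WT and 29.2 ± 1.74 FPKM in EV. The vasoconstrictor gene Edn1 was low, at 2.19 ± 0.114 FPKM in WT and 1.34 ± 0.0560 FPKM in EV, and lost its call in 8 of the 9 fits that left out 1 library (adjusted p up to 0.129, limma). Among the falls, Cd24a, a surface glycoprotein gene, averaged 27.4 ± 3.80 FPKM in WT and 33.9 ± 4.20 FPKM in EV. Sat1, the polyamine acetyltransferase gene, averaged 62.7 ± 0.840 FPKM in WT and 76.4 ± 4.77 FPKM in EV. The growth factor gene Fgf7 averaged 34.9 ± 3.84 FPKM in WT and 41.9 ± 6.45 FPKM in EV, and lost its call in 5 fits that left out 1 library. Aqp1 and Sat1 each lost their call in 2 such fits. Of the genes in this paragraph, Itprip alone passed without the block (adjusted p = 0.0271, limma). Ank2 (adjusted p = 0.380, limma) and Cd24a (adjusted p = 0.738, limma) were among those that did not. Without the libraries numbered 1, only Itprip and Cd24a passed.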
